A study of Homo sapiens with 4 samples.

Results

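The genes described here are 10 transporters of thiopurines and nucleosides, listed by gene symbol: the equilibrative nucleoside transporters SLC29A1, SLC29A2 and SLC29A3, the concentrative nucleoside transporters SLC28A2 and SLC28A3, and the exporters ABCC1, ABCC4, ABCC5, ABCB1 and ABCG2. Of these, 9 matched a symbol among the 29833 genes of the expression table, and ABCB1 was not analysed here. The cells were Reh-6-MPR, a derivative of Reh, an established human line of B-cell acute lymphoblastic leukemia (B-ALL), that is resistant to 6-mercaptopurine (6-MP). All 4 libraries came from this single resistant line after 48 h of exposure to PBS as vehicle, to 4 mM histidine, to 1.0 μg/mL 6-MP, or to their combination. There was 1 library for each treatment, so no difference had a replicate check and no p-value was computed.

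6-MP is a purine analog that is carried into the cell and converted by the salvage enzyme HPRT1 into thiopurine nucleotides, which are the active form of the drug. Equilibrative nucleoside transporters move nucleosides, and some nucleobases, down their gradient in either direction, whereas concentrative transporters use the sodium gradient to take nucleosides up. The ABC exporters spend ATP to move conjugates, nucleotides and drugs out of the cell, and ABCC4 and ABCC5 are known for carrying thiopurine nucleotides.

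The authors' values were FPKM, the fragments of a gene divided by its length and by the fragments of its library. Whole reads could be recovered from the steps of these values, so each level is given with its reads and an exact Clopper-Pearson 95% interval. Counting error is all that these intervals cover, so they set libraries against each other and not treatments. The read totals ran from 12899122 with the combination to 15486376 with histidine. The labelled cell type was checked on 9 of 10 B-lineage markers, whose summed FPKM was between 1263 and 1327 in the 4 libraries. The T cell markers were not analysed here.

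Promoters are shown for SLC29A1 and ABCC4, which were lower with the combination, and for SLC29A3 and ABCC5, which were higher in the authors' values. Each is given as the 250 bases before the RefSeq start (GRCh38.p14). RefSeq promoters were matched for 6 of the 10 transporters. ABCC1, which was also lower with the combination, was not among them. Capitals mark the matches, on either strand, to 4 motifs: the GC box GGGCGG, the E-box CACGTG that MYC and MAX bind, the CCAAT box CCAAT and the TATA box TATAAA.
SLC29A1, chr6:44219365-44219614, plus strand: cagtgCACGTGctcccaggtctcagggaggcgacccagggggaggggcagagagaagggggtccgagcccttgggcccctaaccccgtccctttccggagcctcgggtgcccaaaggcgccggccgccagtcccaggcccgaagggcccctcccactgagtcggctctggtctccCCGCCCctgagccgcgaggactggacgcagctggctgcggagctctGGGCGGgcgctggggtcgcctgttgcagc
ABCC4, chr13:95301452-95301701, minus strand: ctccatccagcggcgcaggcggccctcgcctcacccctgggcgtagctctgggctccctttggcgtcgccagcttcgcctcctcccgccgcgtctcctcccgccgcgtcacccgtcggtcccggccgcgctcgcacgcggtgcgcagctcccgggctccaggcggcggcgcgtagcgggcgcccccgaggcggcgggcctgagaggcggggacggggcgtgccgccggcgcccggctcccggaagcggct
SLC29A3, chr10:71319009-71319258, plus strand: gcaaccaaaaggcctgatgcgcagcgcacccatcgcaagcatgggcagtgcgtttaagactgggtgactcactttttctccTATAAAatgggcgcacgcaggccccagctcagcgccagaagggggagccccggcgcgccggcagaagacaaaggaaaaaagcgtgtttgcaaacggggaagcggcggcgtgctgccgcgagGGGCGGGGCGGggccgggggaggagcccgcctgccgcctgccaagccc
ABCC5, chr3:184017885-184018134, minus strand: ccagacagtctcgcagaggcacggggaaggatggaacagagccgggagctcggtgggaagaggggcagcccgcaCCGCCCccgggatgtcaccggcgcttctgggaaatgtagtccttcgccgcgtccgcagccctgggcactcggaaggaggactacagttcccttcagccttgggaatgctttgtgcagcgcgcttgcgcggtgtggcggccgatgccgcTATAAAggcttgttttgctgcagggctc

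The SLC29A1 promoter held 2 GC boxes and 1 E-box, and a second SLC29A1 start, with a window at chr6:44223345-44223594, had 3 GC boxes. The ABCC4 promoter, with 80.4% G and C the richest of the 4, held no match to any of the 4 motifs. In the SLC29A3 promoter 2 overlapping GC boxes and 1 TATA box were found, and in the ABCC5 promoter 1 GC box and 1 TATA box. Of 35116 promoters of the same length, 42.6% held a GC box, 6.35% the E-box, 32.0% a CCAAT box and 10.7% a TATA box. These matches describe the letters of the windows only, since binding was not measured in these libraries.

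An FPKM averaging 1 or more across libraries was reached by 6 of the 9 transporters, and 12750 of all 29833 genes reached it. SLC29A1 had the highest level with vehicle, above 81.3% of these genes, followed by ABCC5 above 68.8% and ABCC1 above 47.1%. ABCC4, SLC29A3 and SLC29A2 were lower, above 28.4%, 21.9% and 16.3%. In this order the counting intervals of SLC29A3 and SLC29A2 overlapped, and those of all other neighbours did not. With the combination the order was different. ABCC5 came first, then SLC29A1, ABCC1, SLC29A3, SLC29A2 and ABCC4, and only the intervals of the last 2 overlapped.

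Among the equilibrative transporters, SLC29A1 (ENSG00000112759, chromosome 6 of GRCh38, as for all gene positions here, 44219553 to 44234142, plus strand) encodes ENT1, the main equilibrative nucleoside transporter of the plasma membrane in many cell types. Its FPKM was 19.0 with vehicle (interval 18.0 to 20.2, 1172 reads), 17.5 with histidine (16.5 to 18.5, 1163 reads), 17.2 with 6-MP (16.2 to 18.2, 1134 reads) and 10.5 with the combination (9.64 to 11.4, 581 reads). The first 3 libraries lay close to each other, and the combination lay below all of them. Its level with vehicle was 1.82 times that with the combination. As log2 read ratios, in which the reads are divided by the total of their library, the combination was at -0.86 against vehicle (-1.01 to -0.72), -0.71 against 6-MP (-0.86 to -0.57) and -0.74 against histidine (-0.88 to -0.59). These 3 comparisons share the library of the combination. Each agent alone was slightly under vehicle, at -0.12 for histidine (-0.24 to -0.0062) and -0.15 for 6-MP (-0.27 to -0.028).

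SLC29A3 (ENSG00000198246, chromosome 10, 71319259 to 71381423, plus strand) encodes ENT3, which acts mainly in lysosomes and other membranes inside the cell. Its FPKM was 2.16 with vehicle (1.84 to 2.51, 168 reads), 2.09 with histidine (1.79 to 2.42, 176 reads), 2.28 with 6-MP (1.97 to 2.63, 190 reads) and 3.39 with the combination (2.98 to 3.85, 238 reads). Only the combination stood above the interval of every other library. This was the opposite side from SLC29A1. The log2 read ratio of the combination was 0.65 against vehicle (0.36 to 0.95), 0.58 against 6-MP (0.29 to 0.86) and 0.70 against histidine (0.41 to 0.99), whereas the intervals of histidine (-0.36 to 0.27) and 6-MP (-0.23 to 0.39) against vehicle included 0. These reads rest on a gene length that was doubled to match the annotation. At the shortest matching length they would be 84, 88, 95 and 119, and the intervals of the combination would be 0.24 to 1.07 against vehicle, 0.17 to 0.98 against 6-MP and 0.29 to 1.11 against histidine. An exon of AL359183.1, at an FPKM of 0.182 to 0.367, lies on the same strand over exons of SLC29A3.

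SLC29A2 (ENSG00000174669, chromosome 11, 66362521 to 66372214, minus strand) encodes ENT2, which carries nucleobases as well as nucleosides. Its FPKM was 1.72 with vehicle (1.33 to 2.19, 67 reads), 2.23 with histidine (1.80 to 2.73, 94 reads), 2.64 with 6-MP (2.17 to 3.18, 110 reads) and 2.22 with the combination (1.76 to 2.77, 78 reads). Vehicle was the lowest library and 6-MP the highest. The log2 read ratio of 6-MP to vehicle was 0.62 (0.16 to 1.08). For histidine it was 0.38 (-0.092 to 0.85) and for the combination 0.37 (-0.12 to 0.86), so at 67 to 110 reads neither difference from vehicle was detectable at this depth. On the other strand, AP001107.9 overlaps exons of SLC29A2 and had an FPKM of 1.23 under vehicle, 1.44 under histidine, 1.66 under 6-MP and 1.28 under the combination. Its lowest and highest libraries were those of SLC29A2. The library kit marks strand, but the strand setting of the counting was not given in the sources used here, so reads of this pair cannot be told apart.

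The summed FPKM of SLC29A1, SLC29A2 and SLC29A3 was 22.9 under vehicle, 21.8 under histidine, 22.1 under 6-MP and 16.1 under the combination. SLC29A1 supplied 83.1% of it under vehicle, 80.2% under histidine, 77.8% under 6-MP and 65.1% under the combination. SLC29A3 supplied 9.41%, 9.59%, 10.3% and 21.1% in the same order. The lower sum with the combination therefore came with a smaller share of SLC29A1 and a larger share of SLC29A3.

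Ratios of 2 transporters inside a library do not depend on how libraries are scaled. These ratios were chosen after the values had been seen. SLC29A1 was at 8.83 times the FPKM of SLC29A3 with vehicle (7.50 to 10.4), 8.36 times with histidine (7.13 to 9.85), 7.55 times with 6-MP (6.47 to 8.85) and 3.09 times with the combination (2.65 to 3.61). The interval of the combination lay under the other 3. Against SLC29A2, SLC29A1 was at 11.1 times with vehicle (8.65 to 14.4), 7.83 times with histidine (6.34 to 9.77), 6.52 times with 6-MP (5.36 to 8.01) and 4.71 times with the combination (3.72 to 6.05). Here the intervals of neighbouring values overlapped. Those of vehicle and 6-MP, of histidine and the combination, and of vehicle and the combination did not.

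Among the exporters, ABCC5 (ENSG00000114770, chromosome 3, 183919934 to 184017939, minus strand) encodes MRP5, an exporter of cyclic and other nucleotides. Its FPKM was 11.6 with vehicle (11.1 to 12.2, 1895 reads), 12.5 with histidine (11.99 to 13.04, 2201 reads), 11.7 with 6-MP (11.2 to 12.2, 2041 reads) and 13.8 with the combination (13.2 to 14.4, 2026 reads). Vehicle and 6-MP were level, and the combination was highest. Its log2 read ratio was 0.25 against vehicle (0.16 to 0.34), 0.24 against 6-MP (0.15 to 0.33) and 0.14 against histidine (0.056 to 0.23). Scaling each library by the median ratio of all genes reduced these to 0.090 (-0.0006 to 0.18), 0.092 (0.0023 to 0.18) and 0.012 (-0.0758 to 0.0997), so that the intervals against vehicle and histidine then included 0.

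ABCC1 (ENSG00000103222, chromosome 16, 15949138 to 16143257, plus strand) encodes MRP1, which exports glutathione conjugates and many drugs. Its FPKM was 5.59 with vehicle (5.18 to 6.02, 699 reads), 6.22 with histidine (5.81 to 6.66, 842 reads), 6.61 with 6-MP (6.18 to 7.06, 886 reads) and 4.60 with the combination (4.21 to 5.01, 518 reads). Each agent alone was above vehicle, and the combination of the 2 was below it. The log2 read ratio to vehicle was 0.16 for histidine (0.0088 to 0.30), 0.24 for 6-MP (0.098 to 0.39) and -0.28 for the combination (-0.45 to -0.12). With median-ratio scaling that for histidine was 0.13 (-0.015 to 0.28), an interval that includes 0. Against 6-MP the combination was at -0.52 (-0.68 to -0.37), and against histidine it was at -0.44 (-0.60 to -0.28).

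ABCC4 (ENSG00000125257, chromosome 13, 95019835 to 95301475, minus strand) encodes MRP4, an exporter of nucleotides and nucleotide analogs. Its FPKM was 2.82 with vehicle (2.53 to 3.13, 348 reads), 2.39 with histidine (2.13 to 2.66, 319 reads), 2.60 with 6-MP (2.33 to 2.89, 344 reads) and 1.59 with the combination (1.36 to 1.84, 177 reads). The combination was again below the other 3 libraries, and the level with vehicle was 1.77 times as high. Its log2 read ratio was -0.82 against vehicle (-1.09 to -0.56), -0.71 against 6-MP (-0.98 to -0.44) and -0.59 against histidine (-0.86 to -0.32). Histidine alone was at -0.24 against vehicle (-0.46 to -0.016), and the interval of 6-MP alone (-0.34 to 0.10) included 0.

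The 3 ABCC genes summed to an FPKM of 20.1 under vehicle, 21.1 under histidine, 20.9 under 6-MP and 20.0 under the combination. This sum was nearly level in the authors' values. The share of ABCC5 was 58.1%, 59.2%, 56.0% and 69.1% in that order, and the share of ABCC4 was 14.0%, 11.3%, 12.4% and 7.95%. Median-ratio scaling divides the FPKM by 1.08 for the combination and by 0.972 to 0.989 for the other libraries. It would put the sum with the combination lower relative to the others and leave the shares unchanged. Inside the libraries, the FPKM ratio of ABCC4 to ABCC5 was 0.242 with vehicle (0.215 to 0.271), 0.191 with histidine (0.169 to 0.215), 0.222 with 6-MP (0.197 to 0.249) and 0.115 with the combination (0.0981 to 0.134). The ratio of ABCC1 to ABCC5 was 0.480 with vehicle (0.439 to 0.524), 0.498 with histidine (0.459 to 0.539), 0.565 with 6-MP (0.521 to 0.611) and 0.333 with the combination (0.301 to 0.366). Both ratios were lowest with the combination. The ratio of ABCC5 to SLC29A1 was the highest there, at 1.32 (1.20 to 1.45), against 0.611 with vehicle (0.568 to 0.658).

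**Figure D1:**
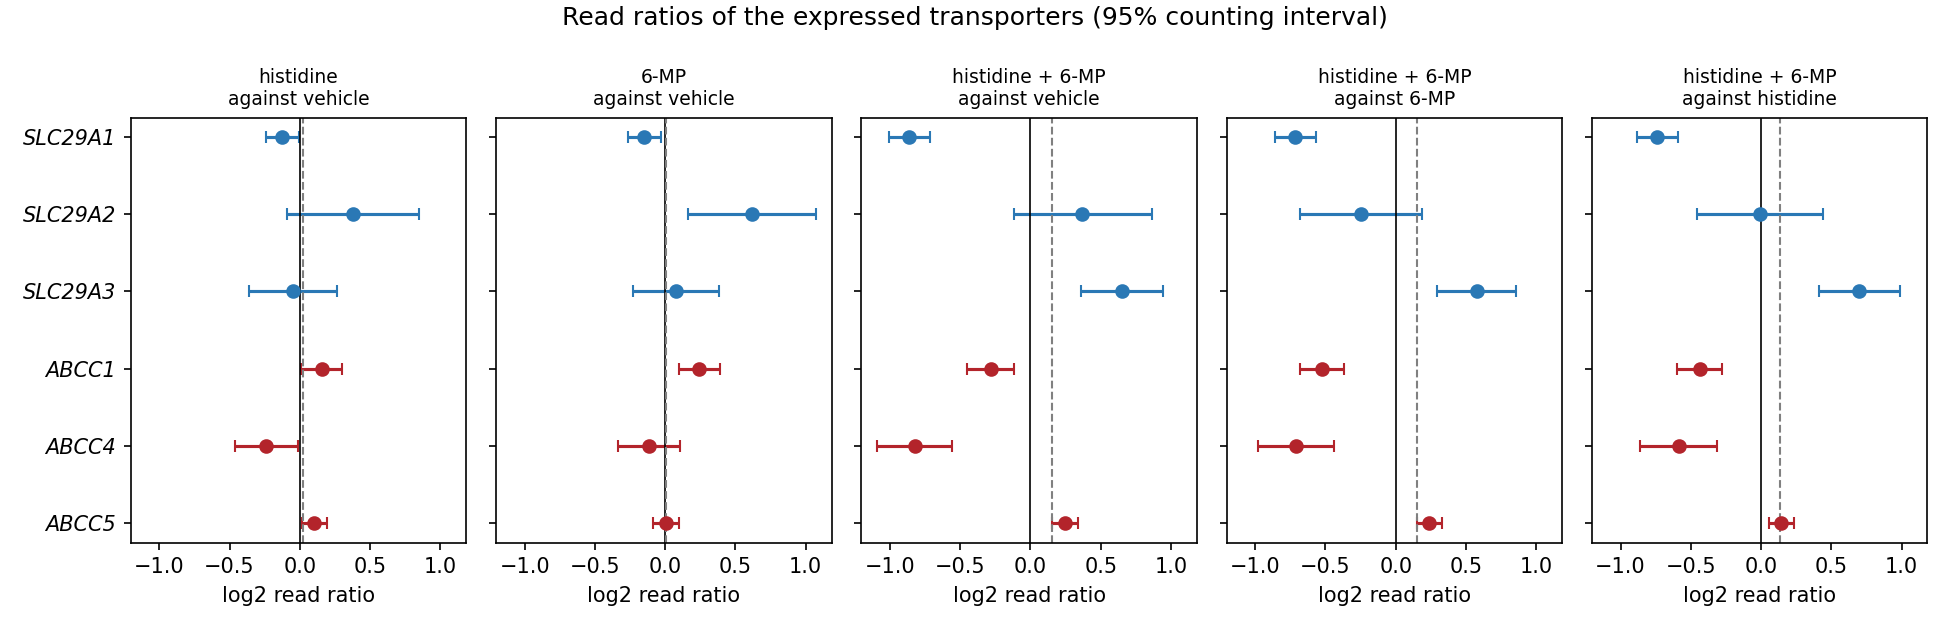
Log2 read ratio of the 6 expressed transporters in 5 comparisons (points, with 95% counting intervals as bars; blue for SLC29 genes and red for ABCC genes), with a solid line at 0 and a dashed line at the median-ratio shift of all genes. In the 3 comparisons of the combination, SLC29A1, ABCC1 and ABCC4 lie left of both lines and SLC29A3 lies right of both.

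The remaining transporters were at or near the limit of detection. ABCG2 (ENSG00000118777, chromosome 4, 88090150 to 88231628, minus strand) encodes BCRP, an exporter of many drugs. It had 5 reads under vehicle, 13 under histidine, 3 under 6-MP and 13 under the combination, or an FPKM of 0.0623, 0.150, 0.0349 and 0.180. The 2 libraries with histidine had more reads than the 2 without. The log2 read ratio of the combination to 6-MP was 2.37 with an interval of 0.50 to 4.82, and the intervals of histidine (-0.31 to 3.11) and of the combination (-0.051 to 3.37) against vehicle included 0. SLC28A2 (ENSG00000137860, chromosome 15, 45252234 to 45277846, plus strand) encodes CNT2, a purine-preferring uptake carrier. It had 2 reads under vehicle, 2 under histidine, 6 under 6-MP and 3 under the combination. AC051619.5, at an FPKM of 0.0651 to 0.217, overlaps its exons on the other strand. SLC28A3 (ENSG00000197506, chromosome 9, 84275457 to 84340758, minus strand) encodes CNT3, a carrier of both purine and pyrimidine nucleosides. It had 2 reads with vehicle and 1 with 6-MP. With histidine and with the combination it had 0 reads, for which the intervals end at an FPKM of 0.0464 and 0.0557. The values of 3 reads, taken as the limit that 0 reads allow, are 0.0377 and 0.0453. Differences of the concentrative transporters were not detectable at this depth.

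**Figure D2:**
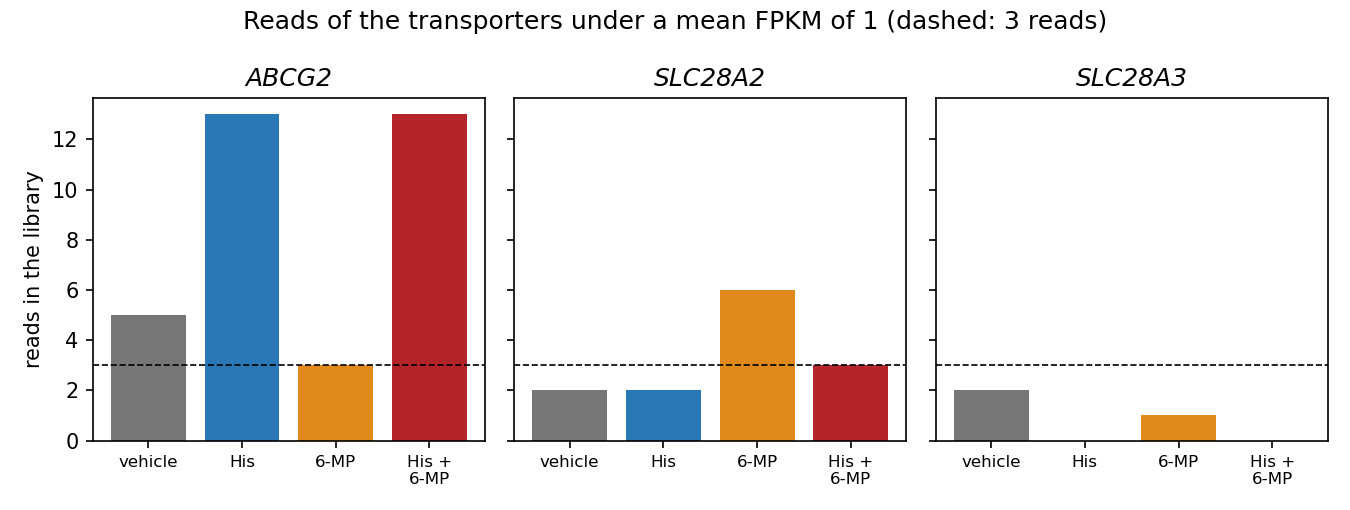
Recovered reads per library of the 3 transporters under a mean FPKM of 1, as bars from 0, with a dashed line at 3 reads. ABCG2 reached 13 reads with histidine and with the combination, SLC28A2 at most 6 reads and SLC28A3 at most 2.

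The comparisons were then read against all 12750 genes. A gene was counted where log2(FPKM + 1) differed by at least 1, a scale that shrinks the differences of weakly expressed genes. None of the 6 expressed transporters was counted in any comparison. The share of all genes counted was 1.33% for histidine against vehicle, 1.18% for 6-MP against vehicle, 6.53% for the combination against vehicle, 6.02% against 6-MP and 5.55% against histidine. The nearest was SLC29A1 with the combination against vehicle, at -0.80, and 2.63% of all genes lay below it. ABCC4 followed at -0.56, with 6.10% below it, and ABCC1 at -0.24, with 18.1% below. SLC29A3 was at 0.48, above 79.0% of genes, SLC29A2 at 0.24, above 61.0%, and ABCC5 at 0.23, above 59.5%.

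At a smaller difference of at least 0.5, the counts were 0 of 6 transporters for each agent alone against vehicle, beside 4.86% of all genes for histidine and 4.72% for 6-MP. With the combination, ABCC4 and SLC29A1 were counted against vehicle, beside 27.1% of all genes. SLC29A1 was counted against 6-MP, beside 26.2%, and SLC29A1 and SLC29A3 against histidine, beside 25.4%. These counts of 1 or 2 in 6 are close to the background shares.

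By counting intervals, histidine against vehicle was above 0 for ABCC1 and ABCC5 and below 0 for ABCC4 and SLC29A1, that is 2 and 2 of 6, where 12.9% and 8.72% of all genes were. 6-MP against vehicle was above 0 for ABCC1 and SLC29A2 (9.98% of all genes) and below 0 for SLC29A1 (7.92%). For the combination the same genes stood on each side in all 3 comparisons, which share its library. The intervals of ABCC5 and SLC29A3 were above 0 and those of ABCC1, ABCC4 and SLC29A1 below 0. Of all genes, 42.7% were above and 20.8% below 0 against vehicle, 42.2% and 21.2% against 6-MP, and 41.2% and 22.1% against histidine.

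That split of all genes depended on the scaling of the libraries. The median-ratio scaling moved all log2 ratios of the combination down, by 0.16 against vehicle, 0.15 against 6-MP and 0.13 against histidine. It left 30.2% of all genes above and 30.8% below 0 against vehicle, 30.2% and 31% against 6-MP, and 30.5% and 31.2% against histidine. ABCC1, ABCC4 and SLC29A1 were below 0 and SLC29A3 was above 0 in all 3 comparisons under this scaling too. Relative to the shift, SLC29A1 was at -1.02 against vehicle (-1.16 to -0.87), ABCC4 at -0.98 (-1.25 to -0.72), ABCC1 at -0.44 (-0.61 to -0.27) and SLC29A3 at 0.50 (0.21 to 0.79). For histidine against vehicle it left 0 transporters above 0, and 9.95% of all genes above and 12.4% below.

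The median difference of log2(FPKM + 1) over the 6 transporters was 0.032 for histidine and 0.030 for 6-MP against vehicle, where the median over all genes was 0.015 and 0.0039. For the combination it was -0.0033 against vehicle, -0.31 against 6-MP and -0.19 against histidine, where the median over all genes was 0.13, 0.13 and 0.11. The median against vehicle lay between genes on opposite sides, with ABCC1 the nearest below and ABCC5 the nearest above.

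The 4 libraries form a layout of 2 agents, so departure from additivity was taken as the sum of the log2 values of the combination and vehicle less the sum of those of the single agents. On read ratios, with approximate 95% counting intervals, it was -0.68 for ABCC1 (-0.89 to -0.47), -0.59 for SLC29A1 (-0.78 to -0.40), -0.47 for ABCC4 (-0.81 to -0.13) and -0.62 for SLC29A2 (-1.24 to -0.0048). It was positive for SLC29A3, at 0.62 (0.21 to 1.03), and for ABCC5, at 0.14 (0.012 to 0.26). The intervals were below 0 for 4 of 6 transporters and above 0 for 2, beside 19.8% and 34.2% of all genes, and that of SLC29A2 ended close to 0. With median-ratio scaling the departure of ABCC5 was 0.013 (-0.11 to 0.14), so its interval then included 0. Those of the other 5 did not. For SLC29A3 this rests on the doubled length. At its shortest matching length the departure interval in the authors' values would be 0.041 to 1.20, with a lower end under the median-ratio shift of 0.12. Under that scaling 27.4% of all genes were below and 25% above 0. On the log2(FPKM + 1) scale 0 of 6 departed by at least 1, beside 6.76% of all genes, and ABCC1 and SLC29A1 departed by at least 0.5, beside 27.3%. The median over the transporters was -0.36, and that over all genes was 0.11.

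Other genes of thiopurine and nucleoside handling were taken from lists of carriers and salvage enzymes. None of their expressed genes differed by at least 1 in any comparison. Of the 5 other nucleoside and nucleobase carriers 3 were analysed, and 2 of these were expressed. SLC43A3, which carries purine nucleobases, had an FPKM of 13.4 under vehicle, 14.1 under histidine, 13.6 under 6-MP and 17.9 under the combination, a log2 read ratio to vehicle of 0.42 (0.29 to 0.55). SLC29A4, the monoamine and adenosine carrier of the same family as SLC29A1, had 3.38, 3.84, 3.91 and 4.55 in the same order, a ratio of 0.43 (0.20 to 0.66). Both of these carriers were highest with the combination, as SLC29A3 was. Of all genes, 42.7% had an interval above 0 for the combination against vehicle. For SLC29A4 the combination was at 0.22 against 6-MP (0.0020 to 0.44) and 0.25 against histidine (0.028 to 0.47). These lower ends lie under the median-ratio shifts of 0.15 and 0.13, whereas those of SLC43A3, at 0.27 and 0.22, lie above them. Of the 8 other ABC exporters 5 were analysed, and of these only ABCC10 had an FPKM averaging 1 or more, at 2.35 to 2.55, and its intervals included 0 in all 5 comparisons. The next highest, ABCC2, was at 0.348 to 0.603.

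Of the folate carriers, SLC19A1, which also brings methotrexate into cells, had an FPKM of 11.3 under vehicle, 11.1 under histidine, 11.2 under 6-MP and 7.79 under the combination, a log2 read ratio to vehicle of -0.53 (-0.64 to -0.43). It was lowest with the combination, on the same side as SLC29A1. FOLR2, next in level in that list, was at 0.345 to 0.821. Of the 9 purine salvage genes and ectonucleotidases, 8 were expressed. With the combination against vehicle, 42.7% of all genes had an interval above 0 and 20.8% below 0. Of these 8 genes, the intervals of DCK, ADA and HPRT1 were above 0 and those of ADK, PNP, APRT and ENTPD1 below 0. The highest of them, ADA, which deaminates adenosine, had an FPKM of 64.0, 60.4, 60.8 and 82.6 with vehicle, histidine, 6-MP and the combination. APRT, which salvages adenine, had 40.8, 37.7, 43.3 and 29.3. On the log2(FPKM + 1) scale, the median of the 8 genes for the combination against vehicle was -0.25, where that of all genes was 0.13. It lay between genes on opposite sides, from PNP at -0.65 to HPRT1 at 0.47.

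Markers of other cells were also read in these libraries. Of the 4 myeloid markers 3 were analysed, and their summed FPKM was 28.2 under vehicle, 30.6 under histidine, 26.6 under 6-MP and 42.4 under the combination. MPO supplied 26.4 to 41.0 of it, LYZ was at 0.0375 to 1.39 and CD14 at 0.0392 to 0.170. Of the stromal markers, COL1A1 was at an FPKM of 0.869, 1.05, 1.03 and 2.04 in the same order. MPO and COL1A1 were highest with the combination, as were SLC29A3 and ABCC5, and their part in the levels of the transporters was not tested. In bulk RNA, a change in the cells that make up a sample and a change of RNA within each cell cannot be told apart.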

How the data were processed

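Reh-6-MPR cells were profiled by RNA-seq in 4 libraries, 1 per treatment, grouped by the sample labels. RNA was extracted with Trizol, and libraries were made with a stranded mRNA kit. The authors deposited FPKM values per gene. The submitters' processing notes name Trimmomatic, HISAT2, Cufflinks and HTSeq with the build hg38 (GRCh38), without versions or settings. The transporters and the gene lists were chosen with earlier results of these data known. All members are named, and of each other list the 2 genes with the highest mean FPKM.

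Reads were recovered from the steps of the FPKM values, within 0.00001 reads of a whole number, for 29831 of 29833 genes. For 1390 genes, SLC29A3 among them, the shortest matching length was multiplied by up to 6 to come within 10% of the GENCODE 29 length. The recovered reads summed to 99.9% of each library's total, and the depth was 14316493 reads under vehicle, 15486376 under histidine, 15342296 under 6-MP and 12899122 under the combination. Differences were taken as log2(FPKM + 1) over genes whose FPKM averaged 1 or more, and as log2 read ratios with exact Clopper-Pearson 95% intervals. DESeq2, which the authors used, needs replicates and was not run. Alternative settings were TPM scaling, median-ratio scaling, a pseudocount of 0.1, no filter, an average FPKM of 5 or more and a difference of at least 0.5. Simulated data were used to test the scripts, which ran in Python 3.11.15 with scipy 1.17.1, numpy 2.4.6, pandas 2.3.3 and matplotlib 3.10.9.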

Additional observations from a re-analysis of the deposited data

Results flagged for a closer look

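ABCC1 was listed because each agent went in opposite directions with and without the other. 6-MP against no 6-MP gave a log2 read ratio of 0.24 in the libraries without histidine and -0.44 in those with it. Histidine against no histidine gave 0.16 without 6-MP and -0.52 with it. With median-ratio scaling the ratio of histidine without 6-MP was 0.13 with an interval of -0.015 to 0.28, which includes 0. That of 6-MP without histidine was 0.23 (0.089 to 0.38). In both cases the difference is the same departure from additivity, -0.68. With 1 library per treatment this difference was not tested.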

How the results depend on the processing

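No paired analysis was possible because the 4 treatments had 1 library each, and for that reason no replicate could be left out. On the log2(FPKM + 1) scale, no transporter reached a difference of 1 under any of the alternatives that kept this threshold. At a difference of at least 0.5, 2 transporters were counted with the combination against vehicle, 1 against 6-MP, 2 against histidine and 2 for the departure from additivity. Without a filter on low values, where 9 transporters enter, the median was -0.0029 for histidine against vehicle, 0.0249 for the combination against vehicle, -0.0416 against 6-MP and 0 against histidine. The median for the combination against vehicle was 0.0214 with TPM scaling, and -0.24 at an average FPKM of 5 or more, which leaves 3 transporters. Median-ratio scaling of the read intervals, an alternative chosen after seeing the data, left 0 transporters above 0 for histidine against vehicle, 1 for the combination against vehicle, 1 against histidine and 1 for the departure from additivity. The shortest matching length of SLC29A3, also chosen afterwards, moved none of its intervals across 0 in the authors' values. At that length the lower end of its departure from additivity, 0.041, lies under the median-ratio shift of 0.12. Single values cannot change without the filter or at an average FPKM of 5 or more, which only alter the genes that enter. Of 180 single values under the alternatives, these settings included, 3 moved beyond their counting interval, all of them ABCC5 under median-ratio scaling. A further 2 changed sign. These were ABCC5 for 6-MP against vehicle, from 0.0067 to -0.0012 with median-ratio scaling, and SLC29A2 for the combination against histidine, from -0.0038 to 0.0154 with TPM scaling. Counting error limits SLC29A2, with 67 to 110 reads, most among the expressed transporters. Beyond what each alternative changes by construction, the cause was not tested.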
